A study of Mus musculus with 4 samples.

Results

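Nodal is a secreted signal of the TGF-beta family that is needed to form mesoderm and endoderm and later to set the left side of the embryo apart from the right. It binds activin receptors with the help of a co-receptor, and SMAD proteins carry the signal to the nucleus, where they act with the factor FOXH1. Nodal signalling raises the transcription of Nodal itself and of its secreted inhibitors, the Lefty proteins, so the pathway limits its own range. At the first somite stages Nodal is known to be transcribed around the node, and then in the left lateral plate mesoderm.

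Described here are 8 genes of this pathway, chosen by name and not by their values: the ligands Nodal, Gdf1 and Gdf3, the co-receptor Tdgf1, the secreted inhibitors Lefty1, Lefty2 and Cer1, and the nuclear factor Foxh1. Each was read by 1 probe, so 8 of the 41174 probes on the arrays belong to them. Of these, 7 were bright enough to be tested, among 21940 tested probes in all.

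The samples were pools of whole mouse embryos. Mutant pools were homozygous for V1330M, a missense allele of Btaf1 that came from mutagenised C57BL/6J mice, and were set against wild-type (Btaf1+/+) pools. BTAF1 is an ATPase that takes the TATA-binding protein off DNA. All embryos had a C57BL/6J and FVB/NJ hybrid background with an FVB share between 50 and 90%, and 3 to 5 somites where that could be had. A pair of pools was made in 2 ways. For the stage_matched pair, equal somite number came first. For the age_matched pair, as many litter mates as possible were set against each other, and mutant and wild-type embryos could differ by as many as 5 somites. Each pair was hybridised on 2 two-colour arrays, with 300 ng of RNA per dye. Replicate 1 carried the mutant in Cy5 and replicate 2 carried it in Cy3. The arrays of a pair measured the same RNA and count as 1 sample, so n = 2 pairs of pools. The number of embryos in a pool, any embryos shared between the pairs and the removal of yolk sacs are not given in the sources used here.

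On each array 43379 spots were read, of which 52.9 to 59.6% were well above background in a dye and 0 were saturated. Btaf1 itself (1 probe, chr19:37086826-37086885, mm9) had a log2 ratio of 0.10 ± 0.03 (SD, n = 2; limma adjusted p = 0.555). The allele alters 1 amino acid, so this level does not check the genotype of the pools. Ratios are log2 of mutant over wild type throughout. They are given first for the 4 arrays in the order stage_matched replicates 1 and 2, then age_matched replicates 1 and 2, and then as the mean of the pairs, which the plots call sets. "Higher" and "lower" are used as calls only for a two-sided limma adjusted p under 0.05 over all tested probes. Intensities are background-corrected array units and can be compared between pools for 1 probe, but not between probes.

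The transcripts of Nodal, Lefty1 and Cer1 were higher in the mutant pools, by 1.84-, 1.71- and 1.65-fold. Gdf1, Tdgf1, Lefty2 and Foxh1 did not pass the test, and Gdf3 was not measurable. None of the 8 was called lower; 1, Tdgf1, had a negative ratio with an unadjusted p under 0.05. Over all tested probes 1.66% were called higher and 3.14% lower. For each of Nodal, Lefty1 and Cer1 the ratio was larger in the age_matched pair than in the stage_matched pair. In whole embryos, a change in the number of cells of a type and a change in RNA per cell cannot be told apart.

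**Figure D1:**
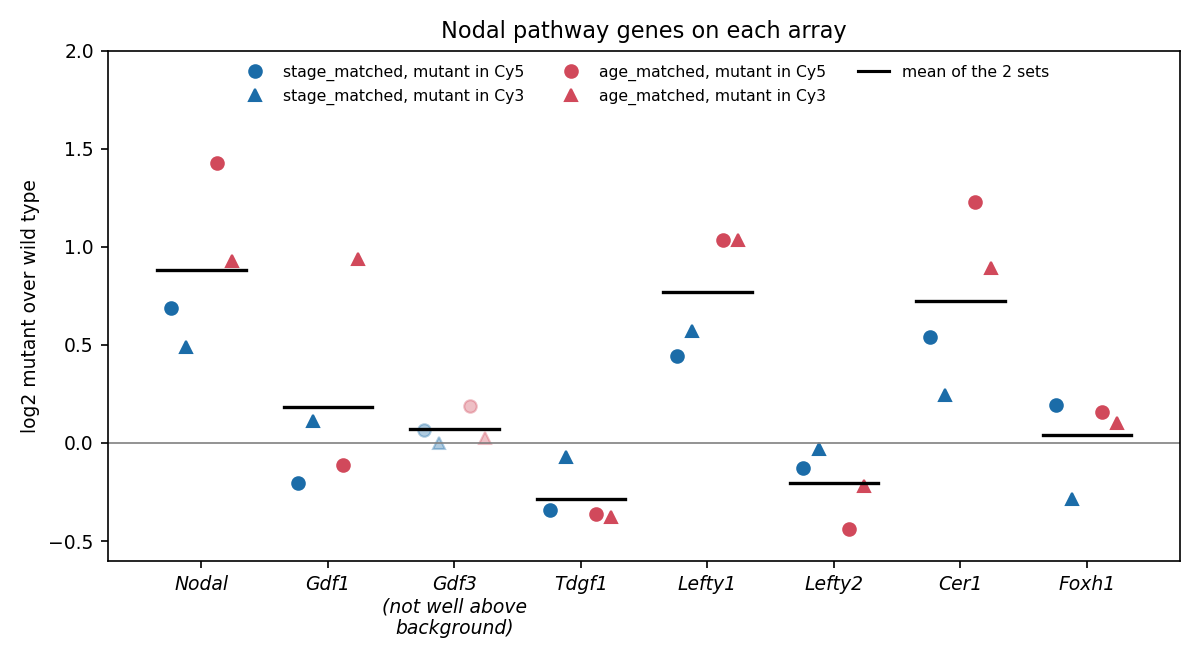
Log2 ratio of mutant over wild type (vertical axis) for the 8 genes on each of the 4 arrays, with the black bar at the mean of the 2 pairs of pools and pale symbols for Gdf3, which was not well above background. Nodal, Lefty1 and Cer1 lie above 0 on every array and higher on the age_matched than on the stage_matched arrays, while Tdgf1 and Lefty2 lie below 0 on every array.

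BTAF1 acts on the protein that binds the TATA box, so promoter sequences are shown for the genes that have an entry in the RefSeq promoter table (GRCm38.p6). Of the 8 genes, 4 had one: Nodal, Cer1, Tdgf1 and Gdf1. The last 150 bases before the annotated start are printed for Nodal (chr10:61417822-61417971, plus strand) and Cer1 (chr4:82885152-82885301, minus strand), which were called higher, and for Tdgf1 (chr9:110946159-110946308, minus strand), whose ratios were negative. Capitals mark matches to AATNNACA, a loose form of the sequence bound by FOXH1.
Nodal: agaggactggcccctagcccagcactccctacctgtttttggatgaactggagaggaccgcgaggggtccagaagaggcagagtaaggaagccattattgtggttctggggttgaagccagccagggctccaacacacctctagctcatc
Cer1: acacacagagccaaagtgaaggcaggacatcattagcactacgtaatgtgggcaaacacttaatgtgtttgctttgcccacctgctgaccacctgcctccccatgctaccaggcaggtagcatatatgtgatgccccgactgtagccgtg
Tdgf1: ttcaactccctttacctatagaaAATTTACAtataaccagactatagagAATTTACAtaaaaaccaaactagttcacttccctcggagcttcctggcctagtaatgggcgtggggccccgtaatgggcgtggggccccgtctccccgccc

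Both strands of the whole table window, 250 bases before to 50 after the start, were searched for 4 motifs. These were TATAAA, the core of the TATA box, AATCCACA and AATNNACA for FOXH1 (the first is a special case of the second), and GTCTAGAC, the SMAD palindrome. Over 32851 promoters they were found in 13.6%, 0.855%, 12.2% and 0.213%. Among the 4 genes with an entry only Tdgf1 held any of them, namely AATNNACA at -127 to -120 and again at -101 to -94, counted from the start. The GC content of the 250 bases before the start was 53.2% for Nodal, 51.6% for Cer1 and 42.0% for Tdgf1, against a median of 52.4% over the table. A match here is a match of letters and not a measured binding site.

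Among the ligands, Nodal is the founding signal of the pathway. Its probe (chr10:60887790-60887849, mm9) read 0.69, 0.49, 1.43 and 0.93 on the 4 arrays. All 4 values were positive, and both age_matched values exceeded both stage_matched values. Wild-type intensities stayed between 209 and 242 over the arrays. Mutant intensities were 336 and 330 in the stage_matched pool and 653 and 420 in the age_matched pool. The mean ratio was 0.88 ± 0.42 (SD, n = 2), with an SE of 0.14, a 95% interval from 0.57 to 1.20 and a limma adjusted p of 0.0189. It was the 26th highest of the 21940 tested probes.

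Gdf1 encodes a ligand that pairs with Nodal and is needed for left-right patterning. It had the brightest probe of the 8 genes (chr8:72855399-72855458, mm9) and ratios of -0.20, 0.11, -0.11 and 0.94. In both pairs the ratio was higher where the mutant was in Cy3 than where it was in Cy5. A single array, age_matched replicate 2, stood apart from the others. On that array the wild-type intensity was 3873, against 6792 to 8115 on the others, while the mutant intensity of 7432 lay within the 6753 to 7521 of the others. The mean of 0.18 ± 0.33 (SD, n = 2) was not called (95% interval -0.10 to 0.46, limma adjusted p = 0.416), and without that array it was -0.08. In the RefSeq gene table Gdf1 overlaps Cers1 and Upf1, so its probe cannot be tied to 1 of these transcripts by position alone. The array has no probe under the name Cers1, and Upf1 read -0.01 ± 0.08 (SD, n = 2; limma adjusted p = 0.971).

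Gdf3, a related ligand that acts in the early epiblast, was not well above background in either pool on any array (0 of 4 for mutant and 0 of 4 for wild type; chr6:122556770-122556829, mm9). Its ratios of 0.07, 0.00, 0.19 and 0.03 describe background light and were not tested.

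Tdgf1 encodes CRIPTO, the co-receptor that lets Nodal bind its receptors. Its probe (chr9:110843254-110843313, mm9) was dim, with wild-type intensities of 149 to 186 and mutant intensities of 130 to 144. Ratios were -0.34, -0.07, -0.36 and -0.38. All 4 were negative, and stage_matched replicate 2 was closest to 0. The mean was -0.29 ± 0.12 (SD, n = 2) with a 95% interval from -0.51 to -0.07. That interval is not adjusted for the number of probes, and the limma adjusted p was 0.126. A negative ratio on 4 of 4 arrays was found for 15.1% of all tested probes, and a positive ratio on 4 of 4 for 12.5%.

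The inhibitors did not move alike. Lefty1 is known for marking the midline of the embryo, where it keeps Nodal signalling to the left. Its probe (chr1:182868137-182868196, mm9) read 0.44, 0.57, 1.03 and 1.03. Within each pair the arrays of opposite dye were close to each other, and the age_matched values were the higher. Mutant intensities were 154, 181, 244 and 204, and wild-type intensities were 99.8 to 122. The mean was 0.77 ± 0.37 (SD, n = 2), SE 0.13, with a 95% interval from 0.47 to 1.07 and a limma adjusted p of 0.0219. The probe was dim, brighter than 15.5% of tested probes. Its ratio depended on how background was treated, from 0.53 without background correction to 1.54 with the processed signals of the scanning software.

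Lefty2 is the neighbouring gene that is transcribed in the left lateral plate mesoderm in response to Nodal. The ratios of its probe (chr1:182827977-182828036, mm9) were -0.13, -0.03, -0.44 and -0.22. None was positive, and the age_matched values lay further from 0. Wild-type intensities were 297 to 465 and mutant intensities 255 to 425. The mean of -0.20 ± 0.18 (SD, n = 2) was not called (95% interval -0.44 to 0.03, limma adjusted p = 0.276). Its interval does not reach the interval of Lefty1, although the difference between the genes was not itself tested. The probes of the Lefty genes start 40.16 kb apart. At 60 bases each, they share at most 20 matching bases when aligned without gaps and no identical run longer than 7 bases.

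Cer1 encodes Cerberus-like, a secreted protein that binds Nodal and BMP ligands. It is known from the anterior visceral endoderm and, at somite stages, from the mesoderm that is about to form somites. Ratios at its probe (chr4:82527731-82527790, mm9) were 0.54, 0.24, 1.23 and 0.89. All were positive, with both age_matched values above both stage_matched values. Mutant intensities were 304, 280, 575 and 325, and wild-type intensities were 175 to 245. The mean was 0.73 ± 0.47 (SD, n = 2), SE 0.15, with a 95% interval from 0.38 to 1.07 and a limma adjusted p of 0.0364. This call was the least secure of the 3 and was lost when any 1 of 3 arrays was left out. Its limma adjusted p rose to 0.0630 when stage_matched replicate 1 was left out, and to 0.228 and 0.0588 when age_matched replicate 1 or age_matched replicate 2 was.

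**Figure D2:**
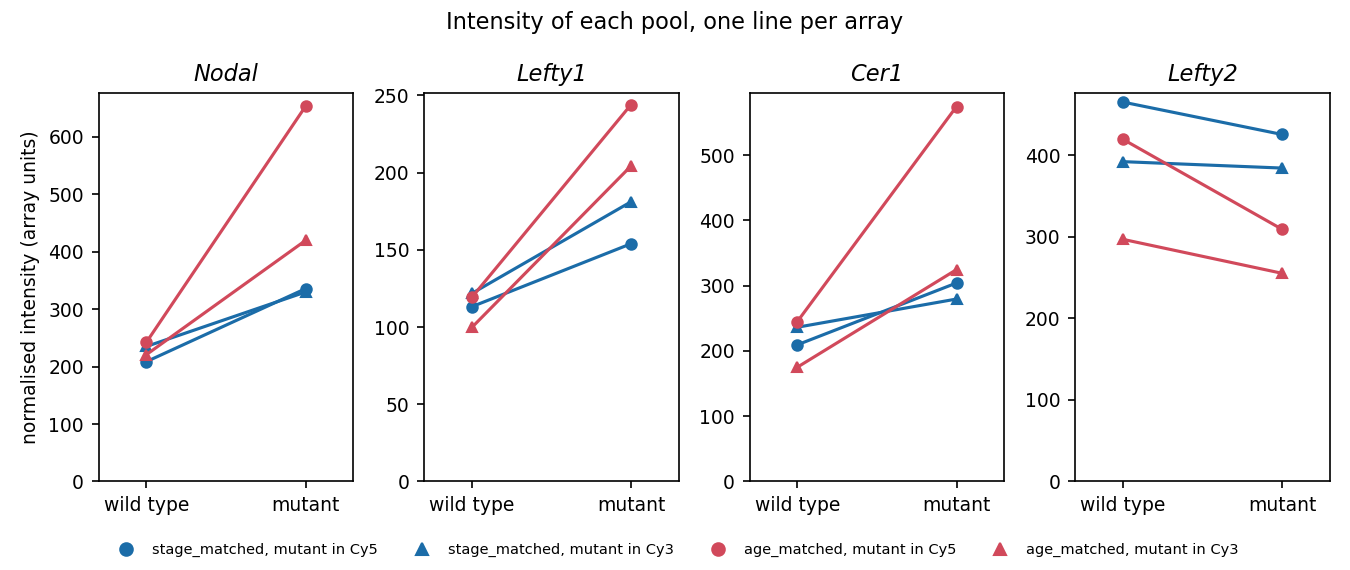
Normalised intensity in array units (vertical axis, from 0) of the wild-type and the mutant pool for Nodal, Lefty1, Cer1 and Lefty2, with 1 line per array. For Nodal, Lefty1 and Cer1 all lines rise from wild type to mutant, most on age_matched replicate 1 for Nodal (242 to 653), and for Lefty2 the mutant value is the lower on each array.

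Foxh1 encodes the DNA-binding partner of activated SMADs. Its probe (chr15:76499155-76499214, mm9) read 0.19, -0.28, 0.16 and 0.10. Only stage_matched replicate 2 was below 0. The mean was 0.04 ± 0.12 (SD, n = 2; 95% interval -0.18 to 0.26; limma adjusted p = 0.836). Its sign turned with median centring (-0.065) and without stage_matched replicate 1 (-0.077), so no direction can be read for it.

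The calls for Nodal and Lefty1 were lost when age_matched replicate 1 was left out, although the ratio of Lefty1 was 0.77 with and without it. Without that array Nodal read 0.76 (limma adjusted p = 0.140) and Lefty1 read 0.77 (limma adjusted p = 0.172), and 0 of the 3 higher calls remained. Calls over all probes fell at the same time, from 365 to 10 higher and from 690 to 13 lower. Leaving out an array also leaves its pair in 1 dye orientation.

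The question of the second comparison was whether the mutant effect differed between the pairs of pools. In folds, Nodal was 1.50 times the wild-type level in the stage_matched pair and 2.26 times in the age_matched pair. For Lefty1 these folds were 1.42 and 2.05, and for Cer1 they were 1.31 and 2.08. The difference in log2 ratio, age_matched minus stage_matched, was 0.59 for Nodal (limma adjusted p = 0.0395) and 0.67 for Cer1 (limma adjusted p = 0.0125), both past the threshold. It was 0.53 for Lefty1 (limma adjusted p = 0.0892), 0.46 for Gdf1 (0.183), 0.18 for Foxh1 (0.801), -0.16 for Tdgf1 (0.820) and -0.25 for Lefty2 (0.644), none of which passed. So 2 of 7 genes were called, against 2.31% of all probes in either direction and 1.6% in the same direction. For 3 of 7, Nodal, Lefty1 and Cer1, both age_matched arrays lay above both stage_matched arrays, as they did for 14.7% of all probes. The SE of each difference was about 0.17 to 0.18 and came from arrays of the same RNA, so the test holds no variation between embryos. With 1 residual and 241.8 prior degrees of freedom, this SE was almost wholly a spread estimated over all tested probes. The gene's own spread between dye-exchanged arrays had little weight in it. Neither call held with median centring, where the differences were 0.43 for Nodal and 0.53 for Cer1. The limma adjusted p was then 0.99999 for all 7 genes alike. Median centring also lowered the median of all probes by 0.13 in the age_matched pair, and why the calls were lost was not tested. Both calls were also lost without background correction (limma adjusted p = 0.414 and 0.405) and with processed signals (0.196 and 0.107), and that of Nodal with a normexp offset of 10 (0.0823).

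**Figure D3:**
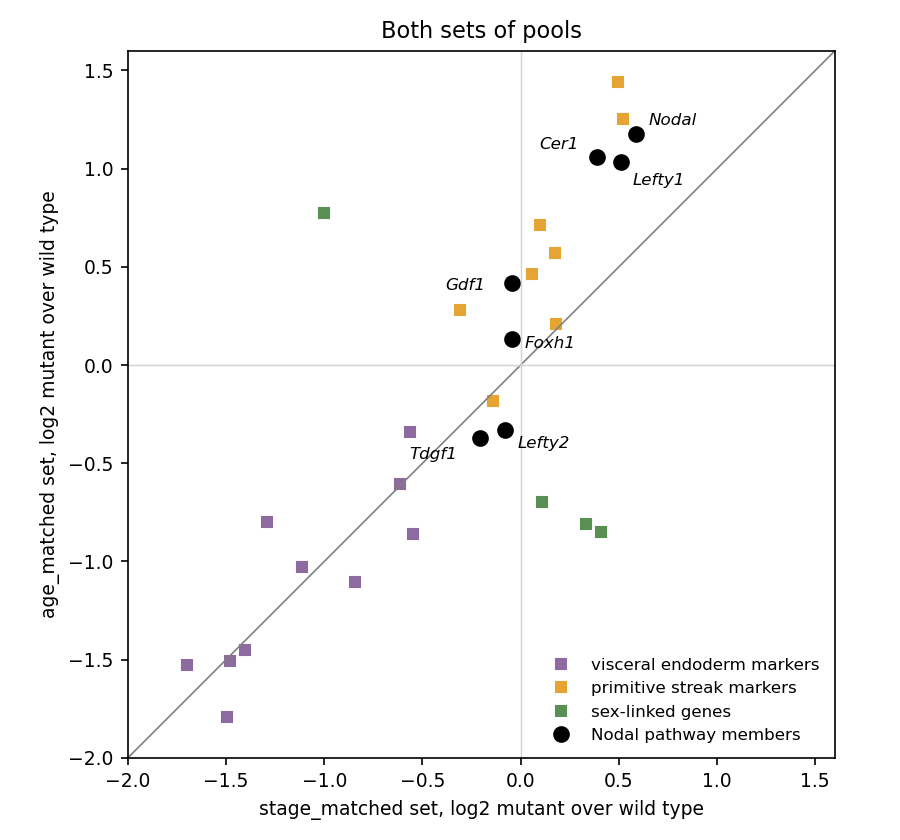
Log2 mutant over wild type in the stage_matched pair (horizontal axis) against the age_matched pair (vertical axis) for the 7 tested genes (black) and 3 marker lists (squares), with the line of equal ratios. Nodal, Lefty1 and Cer1 lie above the line among the higher primitive streak markers, visceral endoderm markers all lie below 0 in both pairs, and sex-linked genes change sign between the pairs.

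Other differences between the pools moved with these ratios. Xist, which is transcribed from the inactive X chromosome of females, had negative ratios in the stage_matched pair (-0.75 and -1.25) and positive ones in the age_matched pair (0.53 and 1.02). The Y-linked Ddx3y, Eif2s3y and Kdm5d moved opposite to Xist, and all 4 tested sex-linked genes were called for the difference between the pairs. Of 4 tested maternal tissue and blood markers, 3 were called for it too, and the list's median went from -0.95 to 0.17. Prl8a2 (-0.94 to 0.51) and Hbb-b1 (-1.35 to 0.91) changed sign. Hba-a1 (-0.96 and -0.32) and Igfbp1 (-0.24 and -0.16) were negative in both pairs. Trophoblast markers went from a median of -0.21 to 0.34, with 1 of 5 called. The part of sex, maternal tissue, blood and somite number in the differences for Nodal and Cer1 was not tested.

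Markers of the cells that could hold these transcripts were compared as well. Of 8 tested primitive streak and early mesoderm markers, 2 were higher (Mesp1, 0.97, and Tbx6, 0.89) and 0 lower. The age_matched median of this list was 0.52 and the stage_matched median 0.14, and 4 of the 8 were called for the difference between pairs. Its summed intensities were 8877 to 16488 in mutant and 7602 to 11530 in wild-type pools, and its defining markers Mixl1 and Eomes were not well above background. Such sums give more weight to brighter probes and do not measure the number of cells. Node and notochord markers had 0 of 5 called in either direction, with 2 at an unadjusted limma p under 0.05, and a median of 0.21. Among formed-somite markers Meox1 (0.41) and Foxc2 (0.47) were higher and 0 of 9 lower, with a median of -0.01. At an unadjusted limma p under 0.05, 2 had positive and 2 negative ratios, the latter being Pax1 (-0.41) and Pax3 (-0.33). Epiblast markers had 1 of 6 higher (Fgf5, 1.05) and 1 lower (Tdh, -0.86). Visceral endoderm markers, whose tissue at earlier stages transcribes Lefty1 and Cer1, went the other way. All 10 were lower, with a median of -1.06 and summed intensities of 21525 to 27132 in mutant and 46932 to 79860 in wild-type pools. The part of any of these cell types in the ratios of Nodal, Lefty1 and Cer1 was not tested.

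The rest of the pathway was followed in 5 lists with 59 genes, of which 57 had a probe and 49 were tested. Of these 49, 3 were called higher and 0 lower, against 2.08% and 2.74% of all 13419 tested genes. At an unadjusted limma p under 0.05 they were 17 and 2, against 11.4% and 11.1% of all tested genes. The median was 0.13 with 35 of 49 positive, beside a median of 0.02 with 7273 of 13419 positive over all genes. The 3 called genes were Pcsk6, Mesp1 and Dll1, and all lost their call without age_matched replicate 1 (limma adjusted p = 0.158, 0.180 and 0.243). Pcsk6 also lost it without age_matched replicate 2 (limma adjusted p = 0.0654), and Dll1 without that array (0.0752) or stage_matched replicate 2 (0.0707).

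Receptors and processing enzymes come first in the pathway. Of 6 tested, 1 was higher: Pcsk6, the gene of PACE4, a protease known to cut the Nodal precursor into its active form. It read 0.61, 0.52, 0.44 and 0.88, with a mean of 0.61 ± 0.07 (SD, n = 2; limma adjusted p = 0.0178), and its second probe was too dim to test. Furin, which cuts the same precursor, read 0.17 (limma adjusted p = 0.499). The co-receptor gene Cfc1, a relative of Tdgf1 needed for left-right patterning, read 0.33 ± 0.12 with 4 of 4 positive (limma adjusted p = 0.0903). The type I receptor gene Acvr1b read 0.13 ± 0.34 (limma adjusted p = 0.578), and the type II receptor gene Acvr2b -0.35 ± 0.17 with 4 of 4 negative (limma adjusted p = 0.0885). Acvr1c was not well above background.

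Among SMADs and nuclear partners 0 of 5 tested were called in either direction, and 1 was higher at an unadjusted limma p under 0.05. Smad2 read 0.23, -0.34, 0.40 and -0.28, positive where the mutant was in Cy5 and negative where it was in Cy3. Its mean was 0.00 (95% interval -0.21 to 0.22), and its sign turned under several alternatives. Smad3 read -0.05 (interval -0.28 to 0.17) and Smad4, the shared partner of both, 0.13 (interval -0.10 to 0.36). The limma adjusted p values were 0.994, 0.797 and 0.484. Mixl1 and Eomes, which encode partners in mesoderm and endoderm, were not well above background.

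Other antagonists of the pathway had 0 of 13 called either way, 1 higher at an unadjusted limma p under 0.05, and a median of 0.04. Dand5 encodes the Nodal inhibitor made on the right and left edges of the node. It read 0.06 (interval -0.15 to 0.27; limma adjusted p = 0.753). Drap1, which encodes a nuclear repressor that restrains the Nodal feedback loop, read 0.00 (interval -0.21 to 0.21; limma adjusted p = 0.998). The signs of Dand5 and Drap1 both turned with median centring.

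Target genes had 1 of 10 tested called higher and a median of 0.27, or 0.39 over the age_matched and 0.07 over the stage_matched ratios. The gene called was Mesp1, a factor of early mesoderm, at 0.62, 0.37, 1.64 and 1.24. Its mean was 0.97 ± 0.67 (SD, n = 2; limma adjusted p = 0.0315), and a second probe read 0.60 (limma adjusted p = 0.0879).

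Genes of the node, its cilia and left-right patterning had 1 of 15 tested called higher and a median of 0.22. Dll1, a Notch ligand needed for Nodal transcription at the node and for somite formation, read 0.19, 0.53, 0.65 and 0.86, with a mean of 0.56 ± 0.28 (SD, n = 2; limma adjusted p = 0.0364). With median centring it read 0.46 and was not called (limma adjusted p = 0.0602). The cilium genes Foxj1, Dnah5, Pkd1l1, Invs and Ccdc39 were not well above background.

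**Figure D4:**
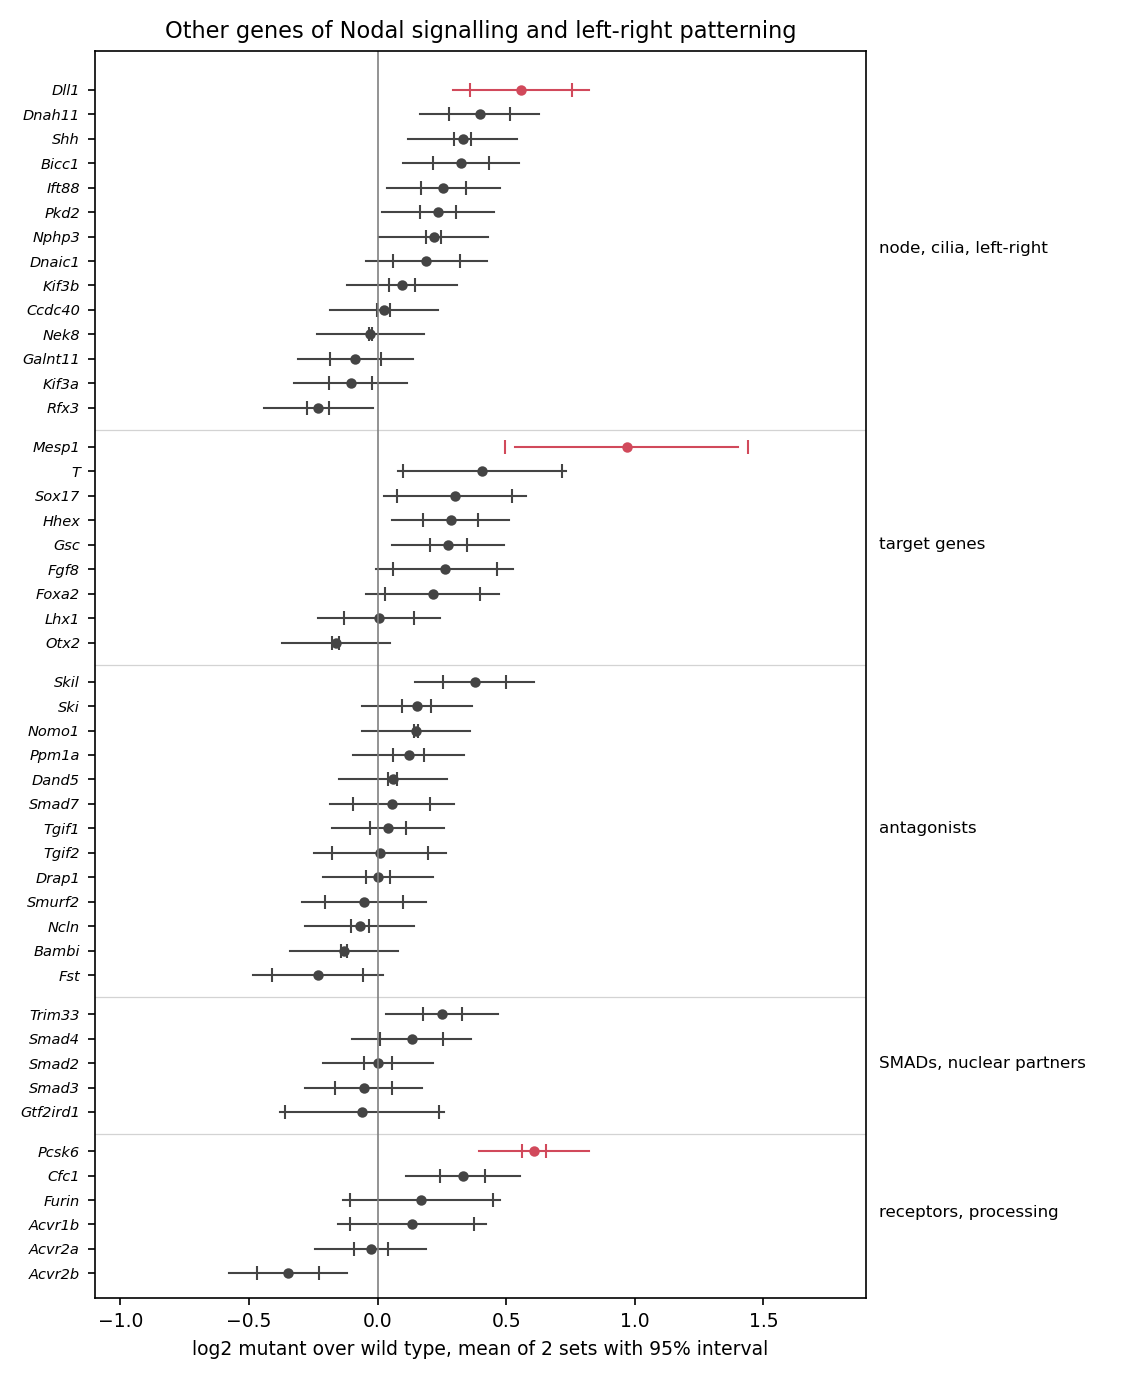
Mean log2 mutant over wild type (horizontal axis, points) with 95% intervals for 47 of the 49 tested genes of the 5 lists, with tick marks at the ratios of the 2 pairs and called genes in red. Pcsk6, Mesp1 and Dll1 are the 3 called, and the intervals of Smad2, Smad3 and Smad4 include 0.

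Of 13418 other genes, the pattern over the 4 arrays most like that of Nodal was that of Cer1. Likeness was measured as the Euclidean distance between the 4 log2 ratios, and it was 0.35 for Cer1, 0.38 for Dll3, 0.40 for Mesp1, 0.41 for Sema3e and 0.44 for 1700013H16Rik. Dll3 encodes a Notch ligand of the mesoderm that forms somites, and Sema3e a guidance signal. Lefty1 was 13th, at 0.49. Foxh1, Gdf1, Lefty2 and Tdgf1 were at places 4452, 5190, 11840 and 12360. The 4 arrays come from 2 pairs of pools, so these distances describe few independent points.

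Of the genes next to Nodal, Lefty1 and Cer1 on their chromosomes, 4 are given, chosen after the results were known. None was called for mutant over wild type. For the difference between the pairs Eif4ebp2 was called, at 0.71 (limma adjusted p = 0.0064), and Pald1, Tmem63a and Zdhhc21 were not. Beside Nodal, Pald1 read -0.14 and Eif4ebp2 -0.46 (limma adjusted p = 0.504 and 0.132). Beside Lefty1, Tmem63a read -0.12 (limma adjusted p = 0.498), and beside Cer1, Zdhhc21 read -0.28 (limma adjusted p = 0.125).

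**Figure D5:**
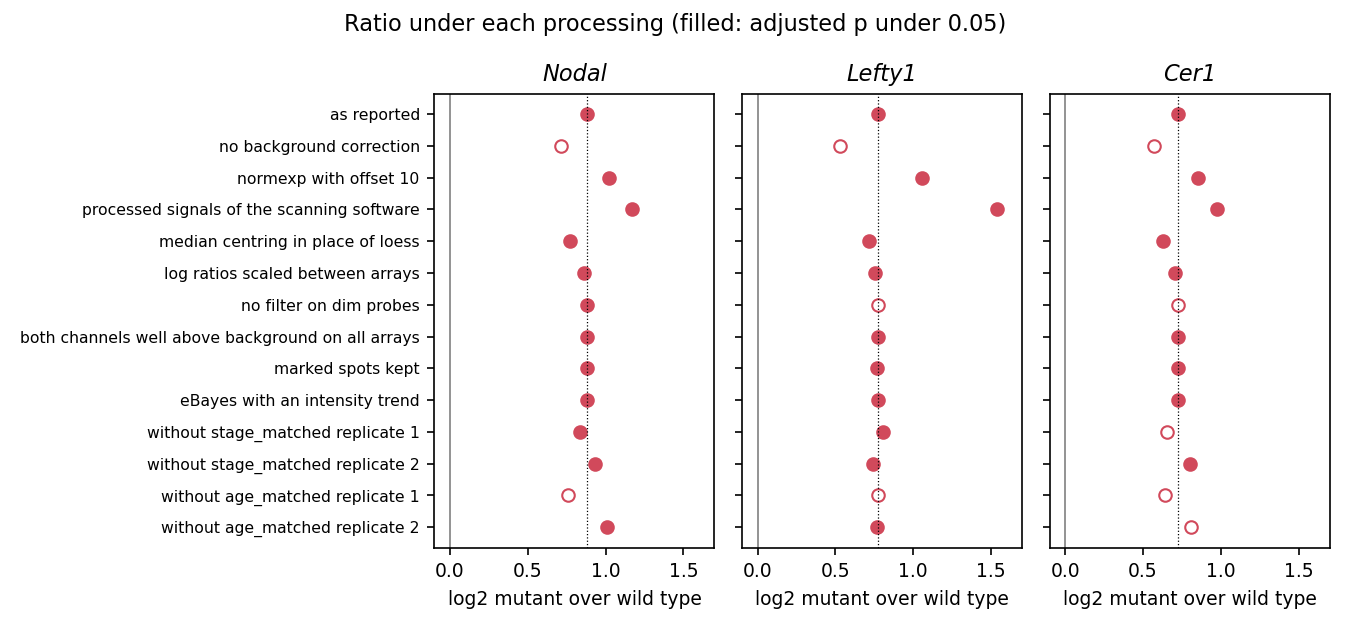
Mean log2 mutant over wild type (horizontal axis) of Nodal, Lefty1 and Cer1 as reported and under each of 13 alternatives (rows), filled where the adjusted p was under 0.05. Every value is above 0, from 0.53 (Lefty1 without background correction) to 1.54 (Lefty1 with processed signals). All 3 calls are lost without background correction and without age_matched replicate 1, where higher calls over all probes also fell, from 365 to 20 and to 10.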

How the data were processed

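The genes and lists were chosen with earlier results of these data known. Spot and background intensity per dye were read from the scanner files as deposited, with no normalization in those columns per the file headers. The scanning software's processed intensity is background-subtracted and dye-normalized, per the file headers. Its log10 ratio was also in the authors' deposited value table, with the sign turned on dye-exchanged arrays; both differed by at most 5e-06, with 0 columns unassigned. The labels name Feature Extraction 9.5.3 and the file headers 10.5.1.1. All arrays shared 1 scan time.

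Log2 ratios were computed with limma 3.58.1 (R 4.3.3): normexp background correction (offset 50), loess within each array, the sign turned on replicate 2, and control or marked spots left out. A probe was tested if it was well above background in the mutant or the wild-type channel on all 4 arrays; 21976 were, and 36 of these had a marked spot. A gene was represented by its brightest tested probe; gene names came from the files and from RefSeq. The arrays of a pair were averaged, and limma tested the 2 means against 0 (1 residual and 7.12 prior degrees of freedom), with Benjamini-Hochberg adjustment. The error of this test combines each probe's own spread between 2 pairs of pools with a spread estimated over all tested probes. The prior has more degrees of freedom, so in the SEs, intervals and p-values the latter has more weight. The difference between pairs was tested on the 4 arrays with a dye term (1 residual and 241.8 prior degrees of freedom). On simulated data for the first test with 21940 probes, 80% of probes changed by 0.5 and 100% of those changed by 1 were recovered, with 7 false calls. The simulated noise had the same spread for every probe, which real probes do not have. These shares therefore do not carry over to the arrays. Named were all 8 genes, pathway genes past the threshold, 8 others (Cfc1, Acvr1b, Acvr2b, Smad2, Smad3, Smad4, Drap1, Dand5) and the 5 genes nearest to Nodal. Some genes of the rule are not reported here. Further genes are given as list members or after their values were seen. Positions of probes are the deposited ones (mm9); exons and untranslated regions are not given here.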

Additional observations from a re-analysis of the deposited data

Results flagged for a closer look

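The log2 ratio of Nodal was 0.59 higher in the age_matched than in the stage_matched pair, a difference between groups that passed its own test (limma adjusted p = 0.0395). For Cer1 the difference was 0.67 (limma adjusted p = 0.0125). In each case both age_matched arrays lay above both stage_matched arrays. Both calls were lost without background correction, with processed signals and with median centring, and that of Nodal also with a normexp offset of 10. The error in these tests is that between arrays of the same RNA, estimated almost wholly over all tested probes.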

How the results depend on the processing

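The signs of Nodal, Lefty1, Cer1, Tdgf1 and Lefty2 held under all 13 alternatives. Of the 3 genes called higher, 0 remained without background correction and 1 (Nodal) with no filter on dim probes. Leaving out 1 array gave 0 to 3. Over all probes the 365 higher calls became 20 without background correction, 209 with no filter and 10 to 393 with 1 array left out. The count called lower was 1 with an intensity trend in eBayes (Tdgf1, limma adjusted p = 0.0422), where lower calls over all probes rose from 690 to 1229. The count of higher pathway genes, 3 as reported, became 0 without background correction, 1 with no filter and 2 with median centring (Dll1 lost its call). It became 5 each with normexp offset 10, processed signals and the trend, and 0 to 4 with 1 array left out. Higher calls over all probes were 120 with median centring, 716 with offset 10, 747 with processed signals and 647 with the trend. The 2 called differences between pairs became 0 without background correction, with processed signals and with median centring, and 1 with offset 10. Signs turned for Foxh1 with median centring (-0.065; difference between pairs -0.046), and for Smad2 without background correction (-0.0042), with processed signals (-0.0028), with median centring (-0.097) and with scaling between arrays (-0.0078). They also turned for Smad3 with processed signals (0.00039), Drap1 without background correction (-0.011) and with median centring (-0.096), and Dand5 with median centring (-0.043). With 1 array left out the ranges that crossed 0 were -0.077 to 0.16 (Foxh1), -0.078 to 0.45 (Gdf1), -0.17 to 0.17 (Smad2), -0.12 to 0.015 (Smad3), -0.12 to 0.12 (Drap1) and -0.028 to 0.15 (Dand5). The causes were not tested. Median centring moved the median of all probes to -0.07. A median over probes changes nothing for the 8 genes, which have 1 probe each. Lefty1 and Tdgf1 are limited by signal close to background. Each ratio already pairs a mutant with a wild-type pool on the same array. No further pairing by replicate was possible because the replicate numbers only name the dye orientation of the same RNA.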
